A study of Mus musculus with 12 samples.

Results

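The 34 genes described here encode proteins that work in mitosis. They were given as a list of symbols, chosen with earlier results of these data known. All 34 were found by gene name in both tables of expressed genes, among 24631 genes in females and 24474 in males. The RNA came from hand-picked mouse pancreatic islets and was sequenced in bulk in 12 libraries, 3 per group. The control group is labelled Rnf20 Flox Control and the knockout group Rnf20 F/F; Pdx1 Cre ER, a Cre recombinase that tamoxifen switches on and that is driven by Pdx1, a gene active in beta cells and, at lower levels, in other pancreatic cells. Mice of all 4 groups, female and male, had received 5 tamoxifen gavages of 150 ug per g of body weight at 4 weeks of age, and no age at islet collection is stated. The labels give the controls no Cre, and what Cre itself does cannot be told apart from what the deletion does. The study asks how Rnf20, a ubiquitin ligase that acts on histone H2B, bears on beta cell identity.

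Mitosis begins when cyclin B and CDK1 drive a cell to condense its chromosomes and build a spindle. Kinetochores, assembled on centromeres, bind spindle fibres, and checkpoint kinases hold the cell until every chromosome is attached. The anaphase-promoting complex then marks cyclin B and other proteins for destruction, the chromosomes part and the cell divides. Many of these genes are silent in resting cells and are switched on together late in the cycle by MuvB complexes with B-MYB (Mybl2) and FOXM1. Adult islet beta cells are known to divide rarely, and whole islets also hold other cell types that can divide.

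The libraries held 19759712 to 56086810 reads assigned to genes. Male control 2 was the shallowest, with 17701 genes with reads against 22287 to 24269 in the other 11. Rnf20 was lower in all knockout libraries: female controls had normalized counts of 3589, 4032 and 4340 and female knockouts 1877, 2000 and 1927, and male controls had 3812, 3409 and 4058 and male knockouts 1519, 1373 and 1436. Normalized counts are reads divided by 1 size factor per library, set by the authors within each sex, so levels are compared within a sex. Log2 changes are knockout minus control on the scale of log2(normalized count + 1) and stand with their standard error from limma. A gene was called at a limma p below 0.05 after Benjamini-Hochberg adjustment over all genes tested in that sex, 18142 in females and 18010 in males. The labels do not say that each library is 1 animal, so p-values measure the spread between these libraries, which may be technical. In bulk RNA, fewer cells of a type and less RNA per cell cannot be told apart.

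The sequences before the transcription start are shown for the 5 members with the largest changes among those called in either sex and present in the promoter table, because mitosis genes as a class are known for 2 short elements near the start. These are the cell cycle genes homology region (CHR, searched as TTTGAA and TTCGAA), which MuvB complexes bind, and the CCAAT box (searched as CCAAT), which NF-Y binds. Sequences are from RefSeq on GRCm38.p6, 5′ to 3′ on the gene's strand, and capitals mark matches to either element on either strand, so a reversed CCAAT reads ATTGG and a reversed TTTGAA reads TTCAAA. For Top2a (chr11:99024190-99024439, minus strand) and Mki67 (chr7:135716380-135716629, minus strand) the 250 bases before the start are given, since matches lay more than 100 bases before it. For Ndc80 (chr17:71526858-71526957, minus strand), Mybl2 (chr2:163054535-163054634, plus strand) and Spc25 (chr2:69206214-69206313, minus strand) the last 100 bases before the start are given.
Top2a: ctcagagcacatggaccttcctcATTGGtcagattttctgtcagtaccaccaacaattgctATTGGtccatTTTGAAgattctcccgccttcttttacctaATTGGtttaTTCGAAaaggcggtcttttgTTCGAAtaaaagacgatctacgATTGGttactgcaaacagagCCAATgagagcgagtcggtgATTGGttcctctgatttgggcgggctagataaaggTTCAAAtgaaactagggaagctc
Mki67: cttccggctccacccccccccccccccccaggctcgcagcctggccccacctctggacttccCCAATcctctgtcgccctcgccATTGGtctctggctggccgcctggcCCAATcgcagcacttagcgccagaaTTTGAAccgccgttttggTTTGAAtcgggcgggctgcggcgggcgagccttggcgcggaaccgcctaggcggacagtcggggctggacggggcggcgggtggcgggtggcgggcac
Spc25: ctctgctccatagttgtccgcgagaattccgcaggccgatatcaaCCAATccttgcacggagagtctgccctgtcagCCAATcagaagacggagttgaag
Ndc80: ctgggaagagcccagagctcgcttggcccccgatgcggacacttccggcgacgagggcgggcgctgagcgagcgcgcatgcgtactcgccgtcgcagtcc
Mybl2: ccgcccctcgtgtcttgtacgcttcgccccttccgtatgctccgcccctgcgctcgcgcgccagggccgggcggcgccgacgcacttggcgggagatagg
A CHR match of Spc25 and one of Ndc80 lay after the start, and 30 bases around each are given (chr2:69206172-69206201 and chr17:71526811-71526840).
Spc25 after the start: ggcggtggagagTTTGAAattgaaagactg
Ndc80 after the start: gaaactttaaaaTTCAAAccgccttgggtt

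Top2a held 6 CCAAT boxes and 4 CHR matches, and Mki67 held 3 CCAAT boxes and 2 CHR matches. Spc25 held 2 CCAAT boxes and 1 CHR match, Ndc80 held 1 CHR match, and neither element was found in the 300 bases searched for Mybl2. Among these 5 genes no match overlapped another. The promoter table had 29 entries for 28 of the 34 members, and none for Aurkb, Ccna2, Foxm1, Kif20a, Spc24 and Tpx2. In the window of 250 bases before to 50 after the start, TTTGAA occurred in 72.4% of the members' entries and in 17.9% of all 32851 promoters of the table. In the 250 bases before the start alone it occurred in 27.6% of the members' entries and 16% of all, so most members' entries with a match had it only after or across the start. TTCGAA occurred in 10.3% of the members' entries and 1.56% of all. CCAAT occurred in 75.9% of the members' entries and 37.4% of all. Of 2 exact E2F strings, TTTCCCGC occurred in 0% of the members' entries and 1.07% of all, and TTTGGCGC in 0% and 0.514%. Both strings are so rare that 29 entries are too few to set the members apart from all promoters. Other forms of E2F sites were not searched. These are matches of letters and say nothing of whether a factor is bound.

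All 34 members were expressed in every group, with a mean normalized count of at least 10. One stood far above the others: Spc25, a subunit of the outer kinetochore, made up 69.8% of the summed normalized counts of the 34 in female controls and 64.3% in male controls. Per kilobase of exon it reached a control mean of 2038 in females and 2387 in males, whereas the other 33 ranged from 2.30 to 57.4 in females and from 2.76 to 76.9 in males. Sums over members are therefore given without it. The other 33 summed to 3184, 2389 and 2860 in the female controls and 2734, 4577 and 3281 in the knockouts. Male controls summed to 4288, 3121 and 5261 and male knockouts to 3309, 2773 and 2757. The groups overlapped in both sexes, and the spread among female knockouts and among male controls was wide.

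In females few members changed, and the shares called in either direction were no higher than those of all genes. Of the 34, 3 rose (Mybl2, Aurka and Racgap1) and 1 fell (Spc25), which is 11.8% of the members, while 20.6% of all genes tested were called. Called higher were 3 of 34 beside 9.90% of all genes, and called lower 1 of 34 beside 10.7%. The median log2 change was 0.18 over the members and -0.01 over all genes. All 3 knockout libraries lay above all 3 controls for 5 members (Aurka, Mybl2, Racgap1, Plk1 and Ndc80) and below them for Spc25, against 19.0% of all genes above and 20.3% below. Female knockout 2 was the highest of the 6 libraries for 25 of the 34, and without it 1 member was called higher (Mybl2) and 1 lower (Spc25), while calls over all genes dropped to 10.1%. Without female control 2, the lowest of the 3 controls for 26 members, Mybl2 alone was called, beside 11.5% of all genes, and without female knockout 3 Mybl2 alone was called, beside 13.8%.

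In males most members lay lower in the knockout, and 5 of the 6 calls were falls. Top2a, Mki67, Tpx2, Ndc80 and Spc25 fell and Mybl2 rose, which is 17.6% of the members beside 13.2% of all genes tested. Called lower were 5 of 34 beside 7.09% of all genes, and called higher 1 of 34 beside 6.08%. The log2 change was below 0 for 27 members, compared with 45.8% of all genes. Its median was -0.88 over the members and 0.06 over all genes. All 3 knockout libraries lay below all 3 controls for 11 members, compared with 16.9% of all genes, and above them for 2 (Mybl2 and Bub1b), compared with 18.6%.

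Single male controls bear on these counts. Male control 2 was the lowest of the 3 controls for 26 of the 34 members, and its median member had 29 reads against 134 and 183 in the other 2 controls. It held 0 reads for Plk1 and Birc5, where 0 reads allows a normalized count of up to 5.99, and 1 read each for Ccnb1 and Knl1. For Mki67, Tpx2, Bub1 and Ttk it was instead the highest of the 3. Without it, 1 member was called higher (Mybl2) and 9 lower (Top2a, Ccnb1, Aurkb, Kif11, Ube2c, Cdc20, Ndc80, Spc25 and Cdca8), while 6.50% of all genes were called higher and 6.33% lower. The calls with and without it shared 4 members, and Mki67 (adjusted p = 0.0515 in limma) and Tpx2 (0.0836) were no longer called. Male control 3 was the highest of the 6 male libraries for 22 of the 34 members. Without it, Mybl2 alone was called higher and Spc25 alone lower, and the median log2 change of the members was -0.54. Leaving out any male library other than control 2 left 1 to 3 members called. It also lowered the share over all genes, to 9.93% and 7.79% without controls 1 and 3 and 4.60%, 10.9% and 9.38% without knockouts 1, 2 and 3.

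**Figure D1:**
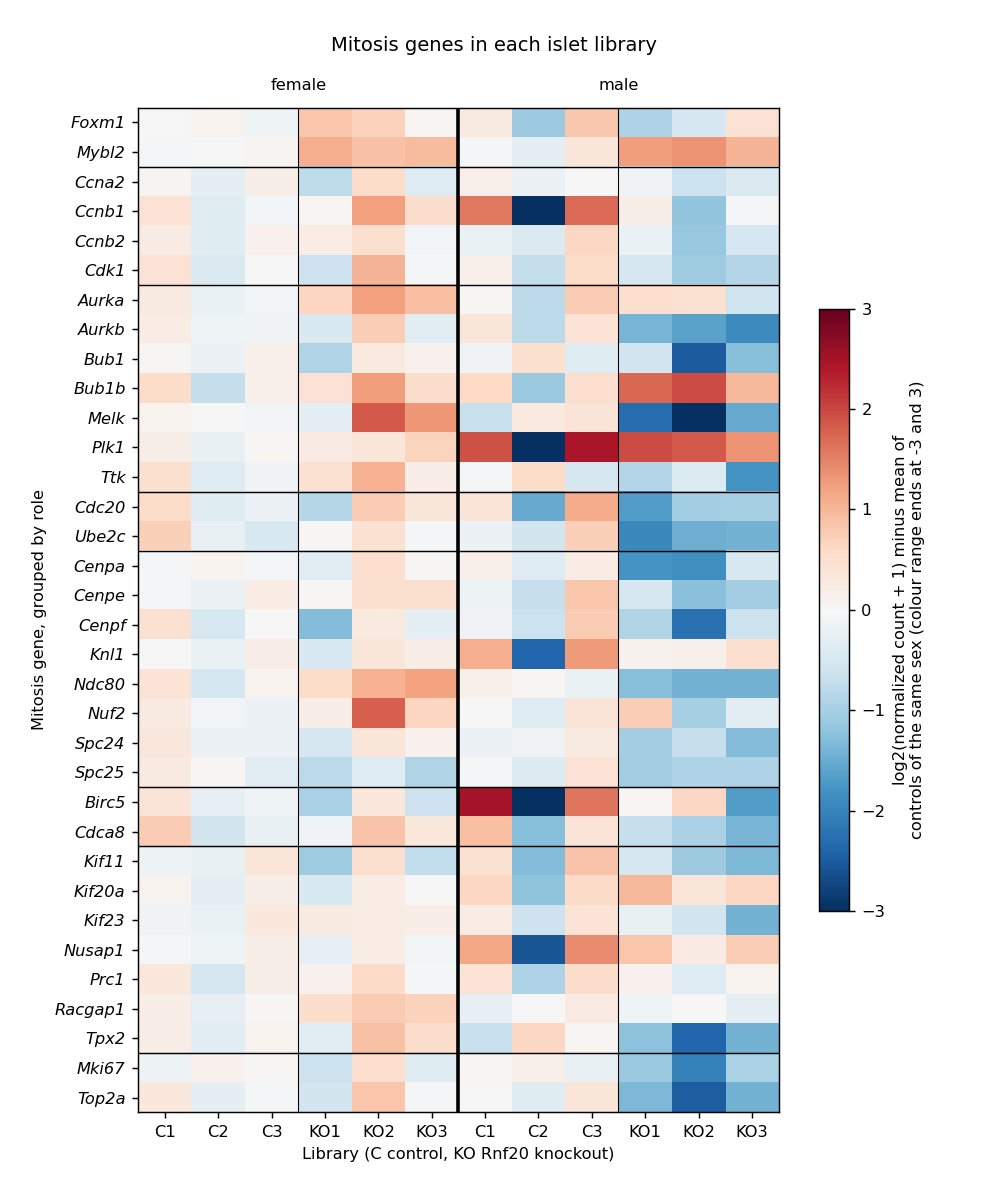
Each row is 1 of the 34 mitosis genes, grouped by role, and each column 1 library (C control, KO knockout). Colour is log2(normalized count + 1) minus the mean of the controls of the same sex, red higher and blue lower. Female knockout 2 is the reddest female library, male control 2 is blue in many rows, and the male knockouts are mostly blue, while Mybl2 is red in all 6 knockout libraries.

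The transcription factors Mybl2 and Foxm1 head the programme. Mybl2, on chromosome 2 (GRCm39, 162896607 to 162926608), encodes B-MYB, which joins the MuvB core in S phase. In females it measured 80.8, 83.2 and 88.3 in controls and 180.1, 155 and 164 in knockouts. In males it measured 124, 106 and 168 in controls and 313, 331 and 265 in knockouts. Every knockout library lay above every control of its sex. The rise was 0.97 ± 0.17 (adjusted p = 0.00707), or 1.97-fold, in females and 1.21 ± 0.29 (adjusted p = 0.0259), or 2.31-fold, in males. The female call held with each library left out (adjusted p from 0.0128 to 0.0336 in limma). The male call was lost without control 1 (0.0598) and without knockout 1 (0.127), 2 (0.0818) or 3 (0.0507).

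Foxm1, a forkhead factor that activates cyclin B and other late genes, was not called in either sex. Its female values were 83.9, 89.5 and 74.9 in controls and 148, 133 and 86.7 in knockouts. Its male values were 109, 41.9 and 158 in controls and 46.5, 62.5 and 122 in knockouts. The groups overlapped in both sexes, with a log2 change of 0.53 ± 0.25 in females (adjusted p = 0.171) and -0.34 ± 0.58 in males (adjusted p = 0.743).

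Top2a and Mki67 act on the chromosomes themselves. Top2a, on chromosome 11 (98883769 to 98915015), encodes the topoisomerase that untangles sister DNA, and Mki67, on chromosome 7 (135291513 to 135318090), encodes Ki-67, which coats mitotic chromosomes and is the usual marker of dividing cells. Top2a measured 432, 339 and 559 in the male controls and 170, 77.9 and 161 in the knockouts. Mki67 measured 376, 397 and 310.0 in the male controls and 166, 87.0 and 184 in the knockouts. No knockout library reached the lowest control for either gene, and male knockout 2 was the lowest for both. Top2a fell by 1.75 ± 0.36 (3.35-fold, adjusted p = 0.0142) and Mki67 by 1.37 ± 0.33 (2.58-fold, adjusted p = 0.0276) on the log2 scale. Top2a lost its call without male control 3 (adjusted p = 0.0543). Mki67 lost it in all but 1 of the fits that left out a male library, with adjusted p of 0.0673, 0.0515 and 0.0556 without controls 1, 2 and 3 and 0.0722 and 0.0529 without knockouts 1 and 2.

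In females the same pair showed no call. Top2a measured 315, 206 and 246 in controls and 172, 449 and 243 in knockouts. Mki67 measured 229.9, 277 and 260.5 in controls and 163, 362 and 197 in knockouts. For both, knockout 2 was above and knockout 1 below every control. The log2 change was 0.08 ± 0.34 for Top2a (adjusted p = 0.900) and -0.17 ± 0.28 for Mki67 (adjusted p = 0.725).

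**Figure D2:**
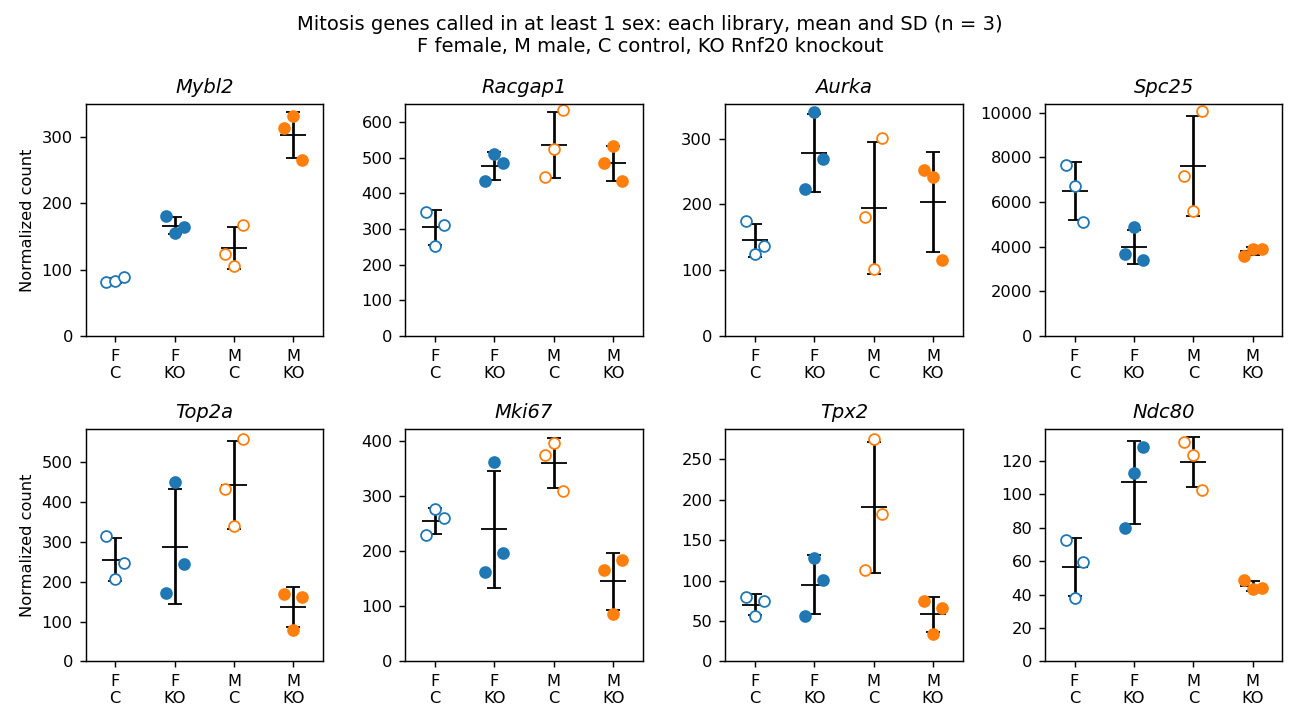
Normalized counts of the 8 mitosis genes called in at least 1 sex, each point 1 library, with the mean and SD of the 3 libraries of a group as horizontal bars. Each sex was scaled apart, so points are to be compared within a sex. Mybl2 is higher and Spc25 lower in the knockouts of both sexes, and Ndc80 lies above its controls in females (80.0 to 128) and below them in males (43.5 to 48.4).

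The cyclins and CDK1, the kinase that starts mitosis, gave no call in either sex. Cdk1 measured 96.3, 52.6 and 71.5 in the female controls and 46.1, 145 and 69.2 in the knockouts. In males it measured 110.4, 59.9 and 144 in controls and 69.2, 46.2 and 53.3 in knockouts. The log2 change was 0.12 ± 0.42 in females (adjusted p = 0.879) and -0.82 ± 0.46 in males (adjusted p = 0.283), and the groups overlapped. Ccnb1, cyclin B1, the partner of CDK1, measured 35.2, 20 and 24.6 in the female controls and 27.0, 62.0 and 37.5 in the knockouts (0.60 ± 0.37, adjusted p = 0.301). In males it measured 85.1, 2.00 and 91.9 in controls and 31.6, 11.8 and 27.1 in knockouts. Its male change was -0.34 ± 1.27 (adjusted p = 0.889) with control 2, in which it had 1 read, and -1.98 ± 0.52 (adjusted p = 0.0430) without that library. Cyclin B2 (Ccnb2) ranged from 57.9 to 122 in male controls and 35.3 to 68.2 in male knockouts, and cyclin A2 (Ccna2) from 154 to 193 and 112 to 160.1. In females Ccnb2 ranged from 31.6 to 48.7 in controls and 38.3 to 57.5 in knockouts, and Ccna2 from 124 to 169 and 87.0 to 217.

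Of the 7 mitotic kinases, Aurka rose in females and none was called in males. Aurka, on chromosome 2 (172198110 to 172212455), encodes Aurora A, which matures the spindle poles. It measured 174, 125 and 136 in the female controls and 224, 341 and 268 in the knockouts, with every knockout above every control. The rise was 0.92 ± 0.21 (1.90-fold, adjusted p = 0.0189). It lost its call without female control 2 (adjusted p = 0.0667), knockout 2 (0.0814) or knockout 3 (0.0519), and in 1 fit of all 12 libraries (0.151). In males Aurka measured 181, 102 and 301 in controls and 252, 242 and 116 in knockouts, and the groups overlapped (0.12 ± 0.46, adjusted p = 0.894).

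Among the other kinases the male values went both ways. Bub1b, which encodes the checkpoint protein BubR1, measured 119.7, 35.9 and 111 in the male controls and 262, 305 and 155 in the knockouts. All 3 knockouts lay above the controls, and the change of 1.55 ± 0.51 had an adjusted p of 0.0761 in limma and 0.0236 in DESeq2 on the recovered reads. In females Bub1b measured 97.3, 40.0 and 73.8 in controls and 89.6, 158 and 95.8 in knockouts (0.74 ± 0.36, adjusted p = 0.198). Melk, a kinase whose RNA follows proliferation, measured 38.8, 75.8 and 81.1 in the male controls and 11.9, 2.72 and 20.97 in the knockouts. Its change of -2.63 ± 0.83 was the lowest of the 34 and had an adjusted p of 0.0676 in limma and 0.0193 in DESeq2. In females Melk measured 20.7, 18.9 and 17.9 in controls and 15.7, 70.8 and 48.3 in knockouts (0.95 ± 0.51, adjusted p = 0.235), and without female knockout 1 it was called (1.56, adjusted p = 0.0241).

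Aurkb, the kinase of the chromosomal passenger complex, measured 63.2, 27.9 and 65.3 in the male controls and 17.8, 15.4 and 12.2 in the knockouts. The groups did not overlap (-1.64 ± 0.65, adjusted p = 0.135), and without male control 2 it was called (-2.03 ± 0.47, adjusted p = 0.0288). Bub1, which recruits checkpoint proteins to kinetochores, measured 32.9, 49.9 and 27.3 in the male controls and 23.7, 5.44 and 13.98 in the knockouts (-1.45 ± 0.78, adjusted p = 0.259). Plk1, polo-like kinase 1, which acts from mitotic entry to cytokinesis, measured 75.8, 0 and 111 in the male controls and 79.1, 72.5 and 51.6 in the knockouts. The limma change of Plk1 was 1.72 ± 1.60 (adjusted p = 0.523) with the control at 0 reads and -0.46 ± 0.37 (adjusted p = 0.459) without it. Ttk, the checkpoint kinase MPS1, ranged from 27.3 to 57.9 in male controls and 10.5 to 29.0 in male knockouts. In females Plk1 ranged from 37.9 to 50.7 in controls and 53.1 to 70.8 in knockouts, which did not overlap and gave no call (0.42 ± 0.24, adjusted p = 0.258), and Aurkb, Bub1 and Ttk overlapped between groups.

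Ube2c and Cdc20 serve the anaphase-promoting complex, Ube2c as the enzyme that hands it ubiquitin and Cdc20 as its activator. Ube2c measured 72.5, 55.9 and 134 in the male controls and 20.8, 29.0 and 29.7 in the knockouts. The groups did not overlap, and the change of -1.61 ± 0.53 had an adjusted p of 0.0816, and 0.0318 without male control 2 (-1.88 ± 0.44). Cdc20 measured 115, 29.9 and 189 in the male controls and 26.7, 42.6 and 42.8 in the knockouts. Its change was -1.23 ± 0.68 (adjusted p = 0.274), and -1.98 ± 0.41 (adjusted p = 0.0200) without male control 2. In females Ube2c ranged from 40.2 to 94.2 in controls and 55.8 to 78.5 in knockouts, and Cdc20 from 37.9 to 72.5 and 27.0 to 84.1, with no call.

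Of the 8 kinetochore genes, Spc25 fell in both sexes and Ndc80 fell in males. NDC80, NUF2, SPC24 and SPC25 form the 4-part Ndc80 complex that grips spindle fibres. Ndc80, on chromosome 17 (71803095 to 71833852), measured 131.5, 124 and 103 in the male controls and 48.4, 43.5 and 43.7 in the knockouts. Its fall was 1.37 ± 0.39 on the log2 scale (2.59-fold, adjusted p = 0.0460). That call held without male control 2 (adjusted p = 0.0405) and was lost without control 1 (0.130), control 3 (0.104) or knockout 1 (0.149), 2 (0.103) or 3 (0.0999). It was also lost in edgeR on the recovered reads (0.0539) and with no filter on low values (0.0725). In females Ndc80 measured 72.5, 37.9 and 59.2 in controls and 80.0, 113 and 128 in knockouts, all above the controls (0.93 ± 0.30, adjusted p = 0.0633). In females it was called with DESeq2 (adjusted p = 0.0451) and without female control 1 (0.0478).

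The other subunits of the complex moved less evenly. Nuf2 measured 62.1, 48.4 and 45.8 in the female controls and 59.2, 180.3 and 81.7 in the knockouts (0.88 ± 0.39, adjusted p = 0.160), and in males it ranged from 67.9 to 118 in controls and 44.4 to 150.2 in knockouts. Spc24 measured 128, 134 and 174 in the male controls and 70.2, 88.8 and 57.7 in the knockouts. Its groups did not overlap, without a call (-1.01 ± 0.36, adjusted p = 0.102), and in females it ranged from 82.1 to 118 in controls and 65.2 to 119.5 in knockouts.

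Spc25, on chromosome 2 (69024239 to 69036538), was the one member lower in the knockouts of both sexes by a call. It measured 7667, 6706 and 5121 in the female controls and 3668, 4864 and 3408 in the knockouts. In males it measured 7169, 5604 and 10055 in controls and 3594, 3872 and 3905 in knockouts. Every knockout lay below every control of its sex. The fall was 0.70 ± 0.18 on the log2 scale (1.63-fold, adjusted p = 0.0305) in females and 0.96 ± 0.19 (1.95-fold, adjusted p = 0.0124) in males. The female call was lost without control 1 (adjusted p = 0.0838), control 2 (0.0919), knockout 1 (0.0946) or knockout 3 (0.0865), and the male call without knockout 1 (0.0601).

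G6pc2, the islet glucose-6-phosphatase of beta cells, lies 4878 bases from Spc25 on the opposite strand. Their starts face each other, so each gene is transcribed away from the other. It measured 103570, 83977 and 73186 in the female controls and 10455, 14822 and 13700 in the knockouts, a 6.69-fold fall. In males it measured 82995, 59521 and 76954 in controls and 7208, 6391 and 7359 in knockouts, a 10.4-fold fall. G6pc2 was the more abundant of the pair per kilobase, at 44028 against 2038 in female controls. Whether reads of G6pc2 enter the count of Spc25 was not tested.

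**Figure D3:**
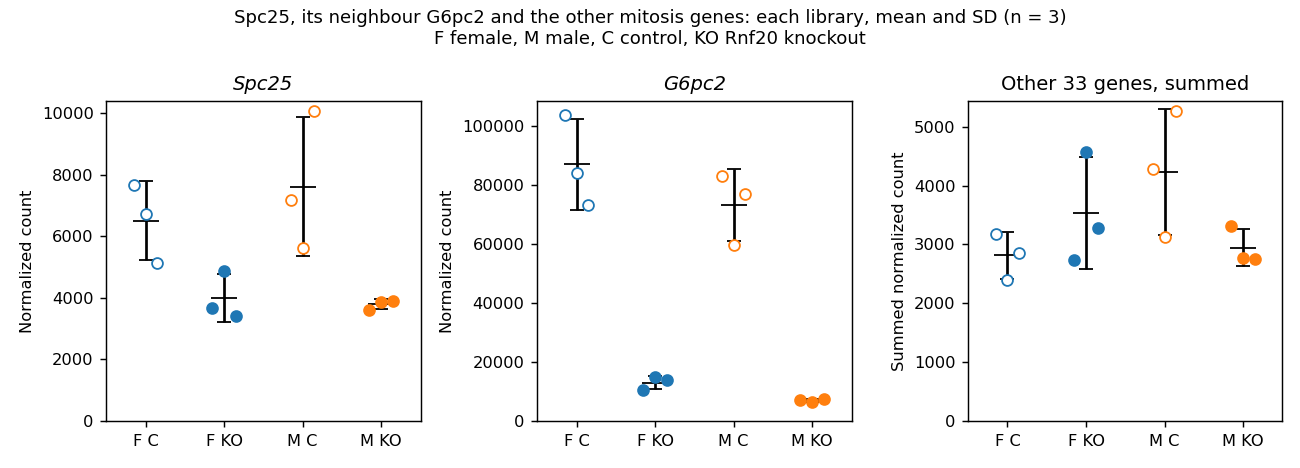
Normalized counts of Spc25 and of its neighbour G6pc2, and the summed normalized counts of the other 33 mitosis genes, each point 1 library, with mean and SD of 3 libraries. Spc25 and G6pc2 are lower in all knockout libraries of both sexes, while the sum of the other 33 overlaps between groups, at 2389 to 3184 in female controls and 2734 to 4577 in female knockouts.

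The remaining kinetochore genes gave no call. Cenpa, the histone variant that marks centromeres, measured 119.7, 81.8 and 126 in the male controls and 30.6, 29.0 and 76.9 in the knockouts, which did not overlap (-1.37 ± 0.51, adjusted p = 0.113). Cenpe, a kinetochore motor, ranged from 33.9 to 99.8 in male controls and 22.7 to 38.5 in male knockouts. Cenpf, a large kinetochore protein, ranged from 45.9 to 123 and 14.5 to 46.3. Knl1, the scaffold that binds the Ndc80 and MIS12 complexes, measured 32.0, 2.00 and 36.6 in male controls, the 2.00 from 1 read, and 15.8, 16.3 and 20.97 in male knockouts. In females the groups overlapped for all 4, with Cenpa at 65.9 to 73.7 in controls and 53.9 to 97.3 in knockouts.

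Birc5 and Cdca8 encode survivin and borealin, which place Aurora B on the chromosomes. Birc5 measured 95.2, 0 and 51.7 in the male controls and 16.8, 25.4 and 4.37 in the knockouts. Both controls with reads lay above the knockouts. The limma change of Birc5 was -0.34 ± 1.64 (adjusted p = 0.917) with the control at 0 and -2.39 ± 0.74 (adjusted p = 0.0730) without it, with no call in either fit. Cdca8 measured 103, 21.9 and 71.8 in the male controls and 33.6, 27.2 and 20.1 in the knockouts, and was called without male control 2 (-1.67 ± 0.43, adjusted p = 0.0420) but not with it (-1.03 ± 0.68, adjusted p = 0.362). In females Birc5 ranged from 34.7 to 54.9 in controls and 20.9 to 52.0 in knockouts, and Cdca8 from 22.1 to 55.9 and 30.4 to 59.7.

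Among the 7 spindle and cytokinesis genes, Racgap1 rose in females and Tpx2 fell in males. Racgap1, on chromosome 15 (99518377 to 99549537), encodes a GTPase-activating protein of the central spindle. It measured 349, 254 and 311 in the female controls and 435, 510 and 487 in the knockouts, which did not overlap. The rise was 0.66 ± 0.16 (1.57-fold, adjusted p = 0.0219), and it lost its call without female control 2 (adjusted p = 0.0720), knockout 2 (0.0944) or knockout 3 (0.0665). In males Racgap1 measured 447, 525 and 633 in controls and 486, 532 and 434 in knockouts (-0.13 ± 0.20, adjusted p = 0.702).

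Tpx2, on chromosome 2 (152689884 to 152737241), encodes the spindle protein that activates Aurora A. It measured 113, 275 and 183 in the male controls and 75.1, 33.5 and 66.4 in the knockouts, with every knockout below every control. The fall was 1.68 ± 0.47 on the log2 scale (3.20-fold, adjusted p = 0.0466). The call was lost without male control 2 (adjusted p = 0.0836), control 3 (0.119) or knockout 1 (0.0937), 2 (0.119) or 3 (0.0755). In females Tpx2 measured 79.7, 55.8 and 74.9 in controls and 55.7, 128 and 100.8 in knockouts (0.37 ± 0.33, adjusted p = 0.478).

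The 5 other spindle genes gave no call with all libraries. Kif11, the motor that pushes spindle poles apart, measured 125, 35.9 and 163 in the male controls and 63.3, 41.7 and 34.9 in the knockouts, and was called without male control 2 (-1.64 ± 0.39, adjusted p = 0.0320). Kif23, which pairs with RACGAP1, ranged from 65.9 to 135 in male controls and 37.6 to 87.0 in male knockouts. Kif20a, a motor of the central spindle, ranged from 37.9 to 137 and 113 to 175. Prc1, which bundles the fibres of the central spindle, ranged from 69.8 to 194 and 103 to 146. Nusap1, which binds fibres near chromosomes, ranged from 7.98 to 142 in male controls and 62.5 to 93.9 in male knockouts, with 4 reads in male control 2. In females all 5 overlapped between groups.

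The spans of 7 members overlap another annotated gene (Ccna2, Kif20a, Cdc20, Nusap1, Prc1, Foxm1 and Cdca8). The strand setting of the counting is not stated, so reads of such partners cannot be told apart here. None of the 8 members called in at least 1 sex is among them.

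**Figure D4:**
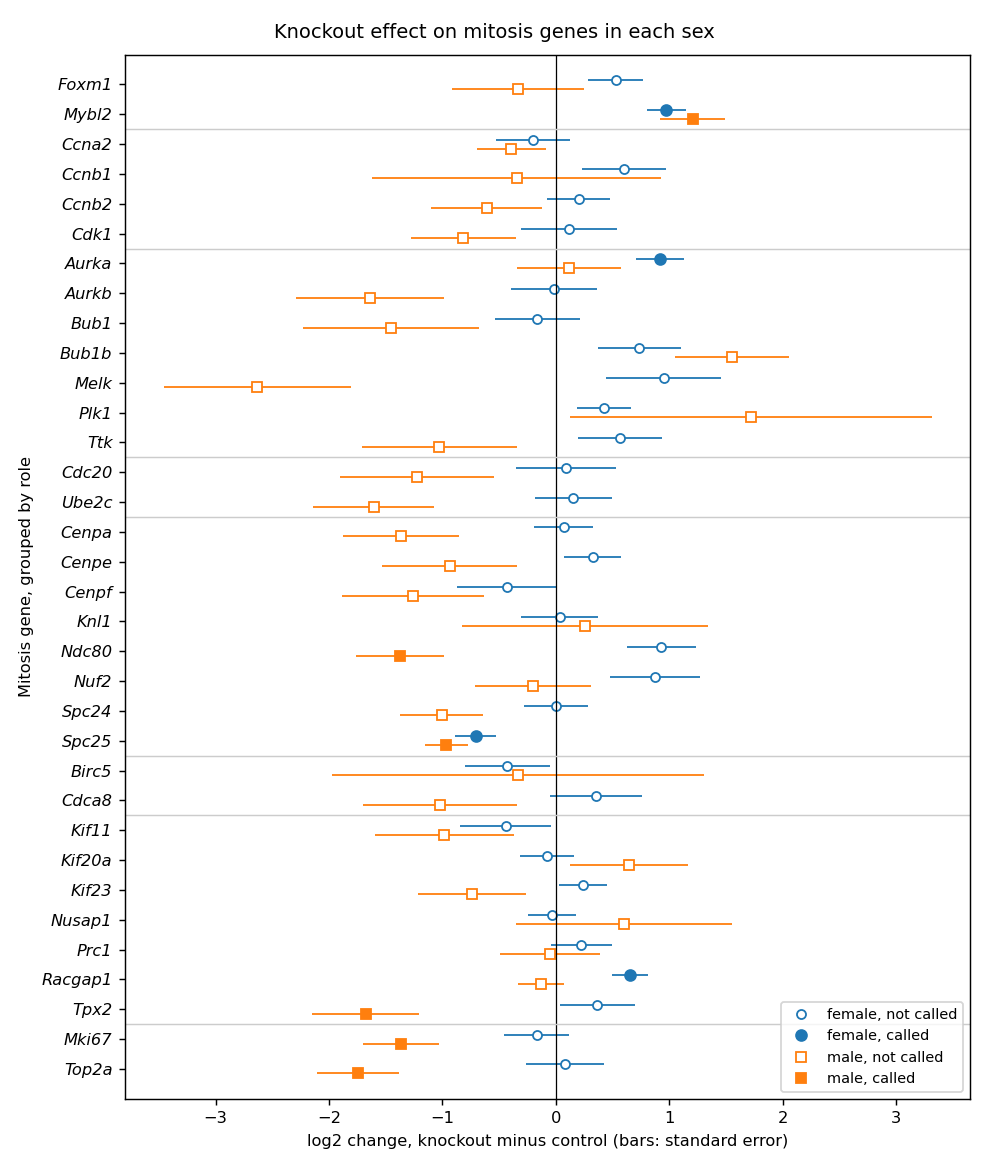
Log2 change, knockout minus control, of each mitosis gene in females (blue circles) and males (orange squares), with standard error bars, and filled symbols for genes called in that sex. Most male symbols lie left of 0 (27 of 34) and most female ones right of it (23 of 34), and the longest bars are those of male genes at 0 or 1 read in male control 2.

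The change was above 0 in females and below 0 in males for 18 members, below 0 in both for 9, above 0 in both for 5 and below 0 in females only for 2. The difference between the sexes was tested as a sex by genotype interaction in 1 fit of the 12 libraries. None of the 34 was called in limma, where 0.110% of 17330 genes were. At an unadjusted p below 0.05 there were 10 members, all with the lower change in males, beside 8.13% of all genes. The lowest adjusted p was that of Ndc80 (male minus female -2.31 ± 0.45, adjusted p = 0.0972). Melk (-3.58 ± 1.00), Top2a (-1.83 ± 0.53), Tpx2 (-2.04 ± 0.61) and Racgap1 (-0.79 ± 0.25) followed, with adjusted p from 0.302 to 0.372. On the recovered reads edgeR called 0 members and DESeq2 called 4 (Top2a, Tpx2, Ndc80 and Melk), beside 1.38% of all genes in DESeq2. The labels give no sequencing batch.

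In the authors' deposited table, from DESeq2, 4 members were higher and 1 lower in females at an adjusted p below 0.05, and 2 were higher and 9 lower in males. Of all genes with an adjusted p in the authors' deposited table, 10.8% were higher and 12.4% lower in females, and 9.53% were higher and 10.4% lower in males. Beyond the limma calls, these were Ndc80 in females and Bub1b, Aurkb, Ube2c, Spc24 and Melk in males, with adjusted p in the authors' deposited table of 0.0354, 0.0195, 0.0308, 0.0113, 0.0340 and 0.0120.

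Other genes of the division machinery were described from 7 lists of genes that are not members. Of 64 other spindle, kinetochore and checkpoint genes, 60 were tested in females and 61 in males, with 2 higher and 2 lower in females and 1 higher and 2 lower in males. Zwint, a kinetochore protein, fell in both sexes, from 11915, 11907 and 11286 to 6723, 5621 and 5366 in females (adjusted p = 0.000971) and from 8485, 10029 and 8579 to 3962, 4419 and 3937 in males (adjusted p = 0.00151). The groups did not overlap in either sex. In females Zw10, of the same kinetochore pathway, fell by 0.47 ± 0.09 on the log2 scale, and Dsn1, of the MIS12 complex, and Arhgap11a rose by 1.06 ± 0.22 and 0.99 ± 0.23. In males Pbk, a mitotic kinase, fell by 2.46 ± 0.59 on the log2 scale and Ckap5, a microtubule polymerase, rose by 0.70 ± 0.12. The median log2 change over the list was 0.10 in females and -0.38 in males, and the shares called, 6.67% and 4.92%, lay below those of all genes.

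Of 27 centromere and condensin genes, 2 rose in females and 1 in males, and none fell, which is 7.41% and 3.85% of those tested, below the 20.6% and 13.2% called among all genes. Ncapd3, of condensin II, rose by 0.50 ± 0.12 in females and 0.76 ± 0.15 in males, and Ncapd2, of condensin I, rose by 0.57 ± 0.14 in females. Of 16 genes of the anaphase-promoting complex and its partners, 1 rose and 3 fell in females and 1 rose and 1 fell in males, or 25% and 12.5%. Ube2s, the enzyme that extends its ubiquitin chains, fell in both sexes, by 0.76 ± 0.20 and 0.75 ± 0.20 on the log2 scale. The catalytic subunit Anapc11 rose by 0.64 ± 0.15 in females, where Anapc4 fell by 0.50 ± 0.08 and Cdc26 by 0.36 ± 0.10, and the scaffold Anapc1 rose by 0.65 ± 0.11 in males.

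Of 16 regulators of mitotic entry and exit, 2 rose and 4 fell in females and 2 fell in males, or 37.5% and 12.5% beside 20.6% and 13.2% of all genes. Cdc25a, a phosphatase that activates CDKs, fell by 0.77 ± 0.10 in females and 0.91 ± 0.16 in males on the log2 scale, and the PP2A subunit Ppp2r2d by 0.58 ± 0.12 and 0.57 ± 0.11. Cdc14b, a phosphatase, and Cdk7, of the CDK-activating kinase, fell in females by 0.88 ± 0.11 and 0.52 ± 0.09. Of 19 genes of the DREAM, E2F and RB family, 1 rose and 3 fell in females and 4 fell in males, or 21.1% in each sex. Tfdp1, the E2F partner, E2f5 and the pocket protein Rbl1 (p107) fell in both sexes, Rbl1 by 0.81 ± 0.19 in females and 1.28 ± 0.28 in males on the log2 scale. E2f1 fell by 1.02 ± 0.26 in males, and the MuvB subunit Lin9 rose by 0.63 ± 0.18 in females.

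Of 46 DNA replication genes, 45 were tested, 8 fell in females and 5 in males, and none rose. These are 17.8% and 11.1% of those tested, above the 10.7% and 7.09% of all genes called lower. Called in either direction were 20.6% and 13.2% of all genes. Mcm2, of the replicative helicase, fell from 899.8, 751 and 665 to 368, 336 and 376 in females and from 659, 609 and 604 to 297, 362 and 271 in males. No knockout reached a control. Cdc7, the kinase that fires origins, fell by 0.97 ± 0.18 and 1.39 ± 0.36 on the log2 scale in females and males, and Pcna, the sliding clamp, by 0.78 ± 0.10 and 0.89 ± 0.16. In females Dbf4, the partner of CDC7, fell by 0.69 ± 0.14, and in males Tyms, thymidylate synthase, by 1.44 ± 0.40.

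Of 13 G1 cyclins, their kinases and inhibitors, 4 fell in females and 3 in males, and none rose, or 30.8% and 23.1% beside 20.6% and 13.2% of all genes. Ccnd1, cyclin D1, measured 3148, 3426 and 3721 in the female controls and 987, 967 and 1071 in the knockouts, and 2927, 2672 and 2022 in the male controls and 878, 955 and 1155 in the knockouts. Its fall was 1.76 ± 0.10 (adjusted p = 0.000182) in females and 1.34 ± 0.18 (adjusted p = 0.00247) in males on the log2 scale, and the groups lay far apart. Ccnd2, the D cyclin that mouse beta cells are known to need for postnatal growth, fell by 0.82 ± 0.10 and 0.90 ± 0.13, Cdk4 by 0.47 ± 0.12 and 0.63 ± 0.13, and Ccnd3 by 0.42 ± 0.10 in females. No gene of the 7 lists was called for a sex difference.

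Cell type markers were summed per library beside these results. Markers of beta, alpha, delta and PP cells were all present in every group, as the label of islet tissue has it. In males, the 9 endothelial markers summed to 16571 to 19209 in controls and 22389 to 30812 in knockouts with 4 called higher, and the 9 stellate and fibroblast markers to 4718 to 7333 and 8183 to 8991 with 1 called higher. The 4 delta markers summed to 59100 to 89349 in male controls and 24102 to 37980 in male knockouts with 3 called lower, and the 8 beta markers, G6pc2 among them, to 6548668 to 8540605 and 3726108 to 5820973 with 5 called lower and 1 higher. The same sums were lower in female knockouts, for delta at 71723 to 83597 in controls and 31621 to 37340 in knockouts with 3 called lower, and for beta at 5169765 to 7994350 and 3943754 to 4242810 with 6 called lower and 1 higher. In females the endothelial sums were 23689 to 26525 and 24429 to 32057 and the stellate sums 8380 to 14275 and 8135 to 13566, with 0 and 1 called. The 7 B lymphocyte markers, of cells that can divide, ranged from 1570 to 48052 in female controls, highest in control 2, from 409 to 5541 in female knockouts, from 168 to 3693 in male controls and from 280 to 1874 in male knockouts, and none was called. The 12 acinar markers summed to 655921 to 1818726 in female controls and 450755 to 633836 in female knockouts, and to 155706 to 2344969 and 321868 to 1716199 in males, with none called in either sex. In males 6 erythroid markers summed to 950.1 to 1875 in male controls and 1738 to 4704 in male knockouts with 1 called higher (Hba-a1). In females the 8 erythroid markers summed to 279.5 to 3654 in controls and 1781 to 9974 in knockouts, with none called. Among them Hba-a1, an alpha-globin gene, was at 84.96 to 1059 in controls and 570.7 to 3088 in knockouts. The 7 duct markers summed to 40809 to 61062 in male controls and 23137 to 36621 in male knockouts with none called. The 9 macrophage markers and the 8 T lymphocyte markers overlapped between groups in both sexes, at 2825 to 6081 and 343 to 1583 in female knockouts. None of the markers summed here was at 0 in every library of a sex, and the part of other cell types in the mitosis genes was not tested.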

How the data were processed

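Bulk RNA of islets was measured in 12 libraries, grouped by the genotype and sex in the labels, with 3 libraries per group. Per the submitters' processing notes, FastQC 0.11.9, Trim Galore 0.6.7, STAR 2.7.3a and featureCounts (no version given) were used with GRCm39 (mm39). The strand setting and annotation release are not given in the sources used here. The authors deposited signal values as DESeq2 normalized counts, reads divided by a size factor per library, with a table for each sex. The description sheet says that the authors' log2 fold changes are DESeq2 maximum likelihood estimates, and that the authors' p-values are from the Wald test, adjusted by Benjamini-Hochberg.

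Repeated entries of a gene were removed (79 in females, 73 in males). Dividing by each library's smallest step gave whole reads for 100% of the values (tolerance 0.001). Genes with a mean of at least 10 were tested per sex on log2(normalized count + 1) with limma 3.58.1 in R 4.3.3 (trend and robust settings) and called at an adjusted p below 0.05. The foreseen test for whole counts, edgeR 4.0.16, and DESeq2 1.42.0 were run on the recovered reads as alternatives, beside pseudocounts of 0.5 and 5, no filter, quantile and TMM scaling, a replicate term, 1 fit of all libraries and leaving out each library. All 34 members passed the filter in both sexes. The fits were tested on simulated data in which every gene had the same spread setting. That test does not cover genes with a wider spread between libraries. Exon lengths are from GENCODE on GRCm38, and coordinates without a sequence are those of the files (GRCm39). Where a library had 0 reads, a floor of 3 reads was used only to state the normalized count that 0 allows. It covers counting error only, and the fits used the 0 itself. No 2 libraries of a group held the same values.

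The members, the gene lists and the alternatives were chosen with earlier results of these data known. All 34 members are accounted for. Members called in either sex and Mki67, Top2a, Cdk1, Ccnb1 and Foxm1 have all values, and members given with statistics beyond these were chosen after their values were seen. From each other list, called genes were named, at most the 4 with the largest change per sex. Promoters were shown for at most 5 called members.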

Additional observations from a re-analysis of the deposited data

Results flagged for a closer look

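Ndc80 had all 3 female knockout libraries above all 3 female controls and all 3 male knockout libraries below all 3 male controls. The male minus female difference of its log2 change was -2.305, with a change of 0.93 in females and -1.37 in males. The test of this difference, the interaction in limma, gave an adjusted p of 0.0972 over all genes and did not pass, while DESeq2 on the recovered reads called it.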

How the results depend on the processing

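The counts of members called were within 1.5 times those reported under both pseudocounts, no filter, edgeR, DESeq2, quantile and TMM scaling, except that DESeq2 called 4 members for a sex difference. Within those counts, male Ndc80 was lost in edgeR and with no filter. In 1 fit of all 12 libraries, 12 members and 4396 genes were called in males, with Aurkb, Bub1b, Cenpa, Melk, Spc24 and Ube2c added, and 2408 genes in females, where Aurka was lost. Leaving out single libraries gave 1 to 4 members and 1839 to 3770 genes in females, and 1 to 10 members and 828 to 2307 genes in males, and it gave 0 members for the sex difference.

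Replicate numbers are shared between groups in the labels, but same-numbered control and knockout libraries did not deviate together (correlations of -0.041, -0.276 and -0.135 in females and 0.121, 0.01 and 0.153 in males), so the numbers were not taken to pair them. With the replicate block, 2 members were called in females (Mybl2 and Spc25) and 3 in males (Top2a, Mki67 and Spc25).

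Changes of members that were not called turned sign as follows, and the cause was not tested. In females Aurkb was 0.078 in edgeR and 0.082 in DESeq2, Spc24 was 0.026, 0.027 and, with TMM scaling, 0.005, and Knl1 was -0.025 with quantile scaling. In males Nusap1 was -0.175 in edgeR and -0.147 in DESeq2, and Knl1 was -0.459 in edgeR and -0.968 with quantile scaling. With single libraries left out, the log2 change in females ran for Top2a from -0.297 to 0.391, Mki67 from -0.506 to 0.068, Ccna2 from -0.574 to 0.08, Cdk1 from -0.331 to 0.484, Aurkb from -0.391 to 0.207, Bub1 from -0.389 to 0.205, Cenpa from -0.147 to 0.273, Cenpf from -0.797 to 0.003, Kif20a from -0.22 to 0.113, Ube2c from -0.089 to 0.514, Cdc20 from -0.247 to 0.556, Nusap1 from -0.16 to 0.069, Prc1 from -0.021 to 0.387, Spc24 from -0.182 to 0.25 and Knl1 from -0.131 to 0.282. In males it ran for Ccnb1 from -1.977 to 0.5, Aurka from -0.279 to 0.497, Plk1 from -0.458 to 2.948, Birc5 from -2.387 to 0.907, Nusap1 from -0.687 to 1.31, Prc1 from -0.521 to 0.208, Foxm1 from -0.877 to 0.068, Nuf2 from -0.672 to 0.196 and Knl1 from -0.925 to 0.9. No called change turned sign in any setting run. Depth limits members with few reads, above all in male control 2, where 1 read is worth 2.00 normalized counts against 0.718 to 0.988 in the other male libraries.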
